A study of Zea mays with 4 samples.

Results

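The genes described here supply ADP-glucose, the sugar donor for starch, in the maize (Zea mays) kernel. They were chosen by gene ID: sh2 (GRMZM2G429899), bt2 (GRMZM2G068506), agpsl1 (GRMZM2G163437) and bt1 (GRMZM2G144081), 4 of the 39625 gene IDs counted. RNA sequencing was done on whole kernels collected 14 days after pollination from field-grown plants, 2 libraries from wild type (WT) and 2 from plants labelled as the zmknl1 mutant, each library from a different ear. The label carries the name of KNL1, a scaffold protein of the kinetochore, which joins chromosomes to the spindle. The labels name neither the mutant allele nor the inbred background, and the level of the Knl1 gene itself was not analysed here. The comparison asked whether transcripts of ADP-glucose supply differed between the genotypes.

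ADP-glucose pyrophosphorylase joins glucose 1-phosphate and ATP into ADP-glucose, the committed step toward starch. The enzyme is built of large and small subunits. In cereal endosperm most of it works in the cytosol, where the large subunit is encoded by sh2 (shrunken2) and the small subunit by bt2 (brittle2). ADP-glucose then enters the amyloplast, the plastid that makes starch grains, through the envelope carrier encoded by bt1 (brittle1). Maize kernels without functional sh2, bt2 or bt1 are sugary and collapse on drying. The gene agpsl1 encodes another small subunit, named for the leaf.

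Reads counted in genes numbered from 16595289 to 22725030 per library. WT replicate 2 stood apart: its 10 most abundant genes took 25.3% of the counts, against 6.74 to 7.77% in the other libraries, and 23.9% of its reads aligned to several places, against 10.9 to 13.5%. Its scaling factor was 0.707, against 1.10 to 1.16, so that levels in CPM, which are counts set to a common library size after TMM scaling, were raised in that library relative to unscaled ones. The zeins, storage proteins of the starchy endosperm, summed over 26 genes to 353555 CPM there and to 23344, 55506 and 55357 CPM in WT replicate 1 and zmknl1 replicates 1 and 2. Most markers of 3 other kernel parts passed the filter for testing: 6 of 7 listed for the embryo, 3 of 4 for the aleurone and 7 of 8 for the basal transfer layer. The exceptions, lec1 of the embryo, c1 of the aleurone and BETL1 of the basal transfer layer, had 0 counts in all 4 libraries. Of 9 genes listed for pericarp and leaf-like tissue, 3 passed and 3 had 0 counts in all 4 libraries. Whole kernels mix several tissues, so fewer cells of a type and less RNA per cell cannot be told apart.

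Transcripts of both ADP-glucose pyrophosphorylase subunits of the endosperm and of agpsl1 measured lower in both zmknl1 libraries than in both WT libraries, while those of the carrier bt1 overlapped. That order, both zmknl1 libraries below both WT libraries, was met by 3 of the 4 genes and by 20.0% of the 19519 tested genes. On unscaled CPM the same 3 genes met it, against 8.72% of tested genes. The edgeR quasi-likelihood test called 0 of the 4 at an adjusted p of 0.05, where it called 0.0205% of all tested genes. At an unadjusted p under 0.05 it listed bt2 and agpsl1 as lower, with 5.30% of all tested genes lower and 4.94% higher at that limit. DESeq2, the tool named by the submitters, called bt2 and agpsl1 lower, with 2.03% of the genes it tested, and limma-voom called 0 of the 4 and 0 genes in all.

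**Figure D1:**
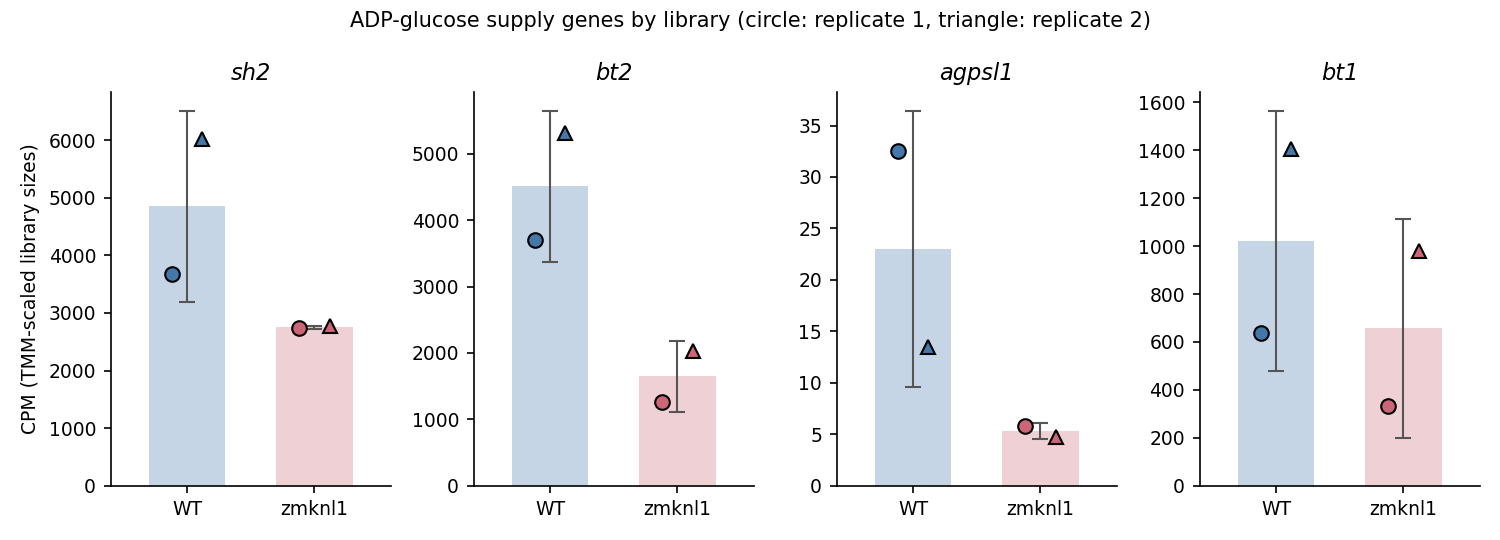
CPM of sh2, bt2, agpsl1 and bt1 in each library, on axes that start at 0 and differ between panels; bars are genotype means, whiskers are the SD of 2 libraries, circles are replicates 1 and triangles replicates 2. The zmknl1 points lie below both WT points for sh2, bt2 and agpsl1, and bt1 spans 333 to 979 CPM in zmknl1 and 636 to 1406 CPM in WT.

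The large subunit gene sh2 measured 3683 and 6026 CPM in WT replicates 1 and 2 and 2734 and 2768 CPM in zmknl1 replicates 1 and 2. The zmknl1 libraries were nearly equal, 1.01-fold apart, and the WT libraries 1.64-fold apart. Only 2.18% of the 13193 genes with a mean of at least 5 CPM differed less between the zmknl1 libraries. The log2 fold change was -0.82 ± 0.55 (SE, n = 2 per genotype; edgeR adjusted p = 0.700, DESeq2 adjusted p = 0.466). Against WT replicate 1 the zmknl1 levels were 1.35- and 1.33-fold lower, and against WT replicate 2 they were 2.20- and 2.18-fold lower. On CPM without the scaling factor the WT libraries lay close together, at 4062 and 4259, above 3168 and 3050 in the zmknl1 libraries. The log2 fold change was -0.42 with no scaling factor and -0.41 without WT replicate 2. Relative to the medians over all tested genes in those fits, the values were -0.76 and -0.54.

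The small subunit gene bt2 showed a wider gap between the genotypes. It measured 3702 and 5315 CPM in WT replicates 1 and 2 and 1263 and 2028 CPM in zmknl1 replicates 1 and 2. Every zmknl1 library was lower than every WT library, from 1.83-fold to 4.21-fold. The log2 fold change was -1.45 ± 0.56 (SE, n = 2 per genotype; edgeR unadjusted p = 0.0352, adjusted p = 0.433), which equals a level 2.74-fold lower. DESeq2 called the difference with an adjusted p of 0.0417. That call held without WT replicate 1 (DESeq2 adjusted p = 0.0101) and ended without WT replicate 2 (0.0647), zmknl1 replicate 1 (0.993) or zmknl1 replicate 2 (0.201). The zein sums given above were lowest in WT replicate 1, where sh2 and bt2 exceeded both zmknl1 libraries. They were highest in WT replicate 2, as bt2 was on scaled CPM. On unscaled CPM bt2 was higher in WT replicate 1, at 4083 against 3756. The sums do not stand for each zein gene. Of the 26 zein genes, 3 measured lower in both zmknl1 libraries than in both WT libraries, against 20.0% of all tested genes. These were bz15, gz16 and dzs18, and 23 overlapped. The edgeR log2 fold changes of the 26 ranged from -2.35 to -0.15, with a median of -1.54. The part of starchy endosperm tissue in the sh2 and bt2 values was not tested.

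The other small subunit gene, agpsl1, differed by the largest log2 fold change of the 4 genes. Its counts were 739 and 158 in WT replicates 1 and 2 and 133 and 119 in zmknl1 replicates 1 and 2. The 95% Poisson intervals, which cover counting error only, were 687 to 794, 134 to 185, 111 to 158 and 99 to 142 counts. This came to 32.5 and 13.5 CPM for the WT pair against 5.83 and 4.75 CPM for the zmknl1 pair, so the WT libraries lay 2.41-fold apart and both exceeded zmknl1. The log2 fold change was -2.12 ± 0.59 (SE, n = 2 per genotype; edgeR unadjusted p = 0.00844, adjusted p = 0.305). DESeq2 called it with an adjusted p of 0.0336, and the call held without WT replicate 2 (DESeq2 adjusted p = 0.00235). It ended without WT replicate 1 (0.593, log2 fold change -1.36), zmknl1 replicate 1 (0.449) or zmknl1 replicate 2 (0.642). The edgeR test also called it without a low-count filter (adjusted p = 0.0263). A block for replicate number did so too (edgeR adjusted p = 0.0358), though the labels name no shared batch. Without WT replicate 2 the edgeR log2 fold change was -2.61. On unscaled CPM the gap to WT replicate 2 was narrower, 9.52 against 6.75 and 5.24.

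The summed level of the embryo markers had the same order of libraries as agpsl1, in WT mostly from the oil body gene ole1 (GRMZM2G337229), while glb3 (GRMZM2G410134) and glb1 (GRMZM2G067919) were ordered otherwise. The 7 listed embryo genes summed to 2986 and 733 CPM in WT replicates 1 and 2 and to 279.5 and 177 CPM in zmknl1 replicates 1 and 2, of which ole1 held 2156, 449, 142 and 60.1 CPM. Of the 6 that were tested, 5 lay below both WT libraries, against 20.0% of all tested genes, and DESeq2 called 4 lower, against 2.03%. The part of embryo tissue in the agpsl1 difference was not tested.

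The carrier gene bt1 gave no common direction. It measured 636 and 1406 CPM in WT replicates 1 and 2 and 333 and 979 CPM in zmknl1 replicates 1 and 2. The zmknl1 libraries were 2.94-fold apart, a wider gap than 96.9% of genes with a mean of at least 5 CPM showed, and the WT libraries 2.21-fold. In both genotypes replicate 2 was the higher library, and zmknl1 replicate 2 lay above WT replicate 1 by 1.54-fold. The log2 fold change was -0.64 ± 0.65 (SE, n = 2 per genotype; edgeR adjusted p = 0.828, DESeq2 adjusted p = 0.829). Leaving out WT replicate 2 turned it to 0.05, or -0.08 relative to the median over all tested genes in that fit. Leaving out zmknl1 replicate 1 brought it to -0.06. With WT replicate 1 left out it was -1.11, and with zmknl1 replicate 2 left out -1.62.

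Ratios of counts within a library do not depend on library scaling, and they describe the proportions between the transcripts of ADP-glucose supply. Counts were not divided by transcript length, so only changes of a ratio between libraries are read, not its size. For each bt2 count there were 0.995 and 1.13 sh2 counts in WT replicates 1 and 2 and 2.16 and 1.37 in zmknl1 replicates 1 and 2. Both zmknl1 libraries thus held more sh2 per bt2 than both WT libraries. The mean log2 ratio was 0.09 ± 0.13 in WT and 0.78 ± 0.47 in zmknl1 (SD, n = 2 per genotype), a difference of 0.69 with an exact two-sided permutation p of 0.333, the smallest that 2 against 2 libraries allow.

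Relative to bt2, the second small subunit kept no such order, and the carrier missed it only by a near tie. There were 0.172 and 0.264 bt1 counts per bt2 count in WT and 0.264 and 0.483 in zmknl1 (log2 difference 0.74, exact permutation p = 0.667). WT replicate 2 and zmknl1 replicate 1 thus had nearly the same ratio, and the log2 difference was no smaller than the 0.69 of sh2 to bt2. For agpsl1 the values were 0.00877 and 0.00253 in the WT pair against 0.00461 and 0.00234 in the zmknl1 pair (log2 difference -0.52, exact permutation p = 0.667), and the difference was 0.38 without WT replicate 1. Per sh2 count, bt1 gave 0.173 and 0.233 in the WT pair against 0.122 and 0.354 in the zmknl1 pair, so the zmknl1 libraries lay on both sides of WT (log2 difference 0.05, exact permutation p = 1). With 2 libraries per genotype, none of these 4 ratios could have reached a p of 0.05.

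**Figure D2:**
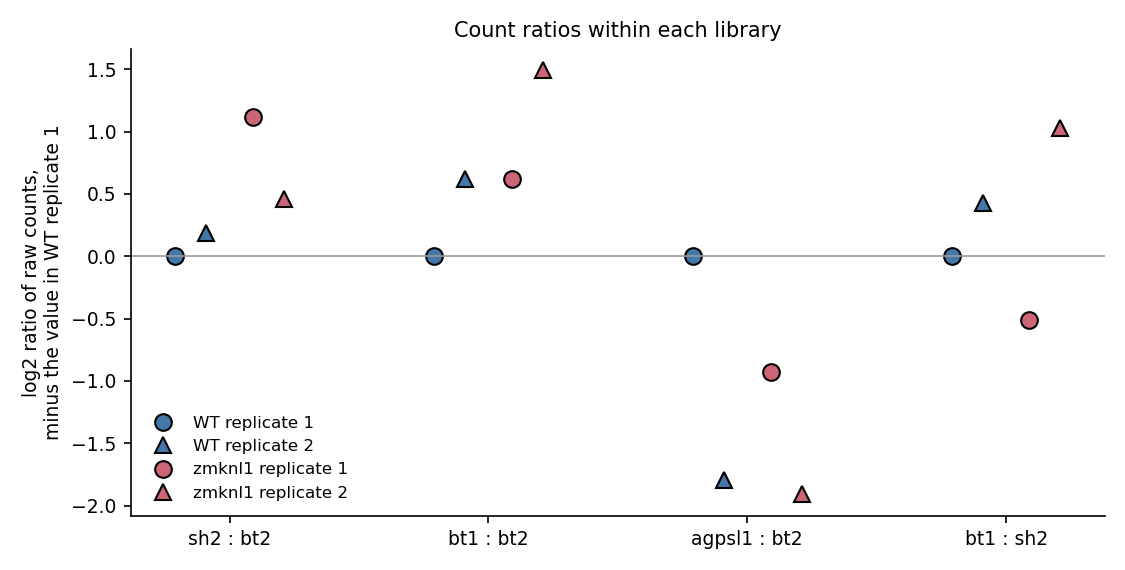
Log2 ratio of raw counts between members in each library, shifted so that WT replicate 1 is at 0; blue points are WT, red points zmknl1, circles replicates 1 and triangles replicates 2. For sh2 to bt2 both zmknl1 points (2.16 and 1.37 sh2 counts per bt2 count) lie above both WT points (0.995 and 1.13). For the other ratios the genotypes overlap, for bt1 to bt2 only by a near tie of WT replicate 2 and zmknl1 replicate 1 (both 0.264).

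Further ADP-glucose pyrophosphorylase genes in the reference names behaved unequally. The small subunit gene Agp2 (GRMZM2G106213, synonym Agpsemzm) had 518 and 361 CPM in the WT pair against 190 and 158 CPM in the zmknl1 pair, below both WT libraries, with a log2 fold change of -1.34 ± 0.41 (SE, n = 2 per genotype; edgeR adjusted p = 0.337, DESeq2 adjusted p = 0.0560). A separate ID was listed only as AGP2 (GRMZM2G027955), and its protein was not checked. This ID had 544 and 307 CPM in the WT pair against 299 and 179 CPM in the zmknl1 pair (DESeq2 adjusted p = 0.564). It too lay below both WT libraries, but its libraries overlapped on unscaled CPM. AGPLS3 (GRMZM2G144002), named as a large subunit, had 34.6 and 12.3 CPM in the WT pair against 15.4 and 23.3 CPM in the zmknl1 pair, with overlapping libraries. Of these 3, 2 lay below both WT libraries, against 20.0% of all tested genes. Called genes among them numbered 0 by edgeR, against 0.0205%, and 0 by limma-voom, which called 0 genes in all. DESeq2 called 0, with 2.03% of the genes it tested called lower. At an edgeR unadjusted p under 0.05, 1, Agp2, was lower, against 5.30% of all tested genes.

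Genes before and after ADP-glucose on the starch pathway that were found by name measured lower in zmknl1 more often than higher. Other names looked for gave no listed ID: su1, su2, isa2, isa3, ugp1, pgm1, pgm2, agp1, agpll1, ss2b, ss3 and ss4. The list held 17 IDs, 2 of them the Agp2 and AGP2 just described, and 16 were tested. Their median log2 fold change was -0.79, against 0.01 over all tested genes and -1.14 over the 4 ADP-glucose supply genes. Of the 16, 11 lay below both WT libraries and 1 above, against 20.0 and 21.9% of all tested genes. Called members numbered 0 by edgeR, against 0.0205% of all tested genes. At an edgeR unadjusted p under 0.05, 6 were lower and 1 higher, against 5.30 and 4.94%. DESeq2 called 4 lower, against 2.03%, and limma-voom called 0 members and 0 genes in all.

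The 4 genes that fell by DESeq2 encode sucrose synthases and granule-bound starch synthases, the enzymes of sucrose cleavage and amylose synthesis. Which genes of the list were called changed when 1 library was left out, a fit that leaves 1 library in a genotype. The sucrose synthase gene sus1 (GRMZM2G152908) had 1764 and 2250 CPM in the WT pair against 527 and 698 CPM in the zmknl1 pair (DESeq2 adjusted p = 0.00357). The granule-bound starch synthase gene GBSSIIa (GRMZM2G008263) had 162 and 76.1 CPM in the WT pair against 13.8 and 11.4 CPM in the zmknl1 pair (DESeq2 adjusted p = 3.14e-07). The others were the sucrose synthase gene sh1 (GRMZM2G089713), with a log2 fold change of -2.01 ± 0.80, and the granule-bound starch synthase gene wx1 (GRMZM2G024993), with -2.38 ± 0.52 (SE, n = 2 per genotype). Both lie beyond sh2 and bt2 in size, but differences between genes were not tested. The cell wall invertase gene INCW2 (GRMZM2G119689, synonym mn1), a gene of the basal transfer layer, was the listed gene above both WT libraries, at 0 and 1.36 CPM in the WT pair against 8.10 and 9.39 CPM in the zmknl1 pair (DESeq2 adjusted p = 0.0702). The 8 transfer layer markers, INCW2 among them, summed to 27.1 and 44.6 CPM for the WT pair and 220.4 and 139 CPM for the zmknl1 pair. All 7 that were tested lay above both WT libraries, against 21.9% of all tested genes. DESeq2 called 5 of them higher, with 299 of the 18762 genes it tested called higher in all. The part of transfer layer tissue in the INCW2 difference was not tested.

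**Figure D3:**
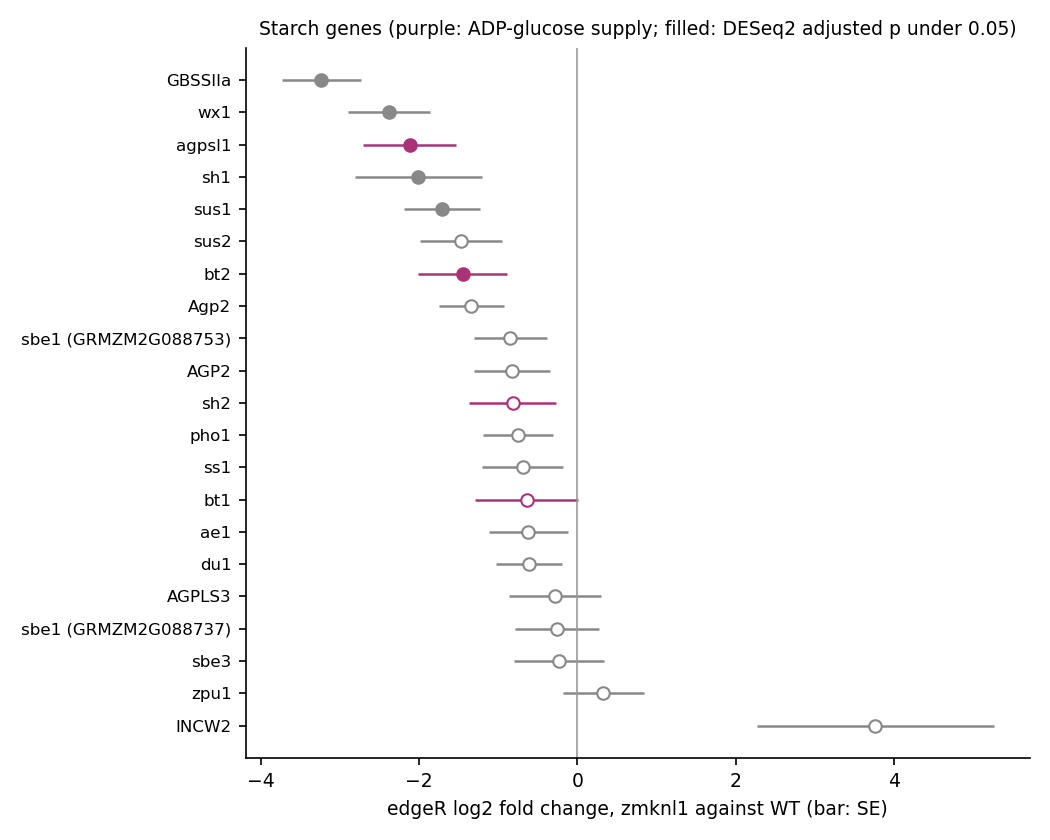
The edgeR log2 fold change of zmknl1 against WT for the 4 ADP-glucose supply genes (purple) and the other tested starch genes (grey), with bars for the SE and filled points for a DESeq2 adjusted p under 0.05. Among the purple points agpsl1 (-2.12) and bt2 (-1.45) are filled, and sh2 (-0.82) and bt1 (-0.64) are open.

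Regulators known for endosperm storage genes were listed beside them, as far as they were found by name. The names o11, nac128, nac130, bzip22 and bzip91 gave no listed ID. The bZIP factor gene o2 (GRMZM2G015534) had 502 and 1190 CPM in the WT pair against 348 and 471 CPM in the zmknl1 pair, and the zinc finger genes IDDveg9 (GRMZM2G129261, synonym Nkd1) and Nkd2 (GRMZM5G884137) measured 127 and 141 CPM against 48.0 and 72.6 CPM, and 8.48 and 14.3 CPM against 1.80 and 6.99 CPM. These 3 of 6 tested regulators lay below both WT libraries, against 20.0% of all tested genes. The Dof factor gene pbf1, counted under 2 IDs, and DOF36 overlapped: GRMZM2G146267 had 81.0 and 47.8 CPM in the WT pair against 85.6 and 57.3 CPM in the zmknl1 pair, while GRMZM2G146283 had a log2 fold change of -0.14 ± 0.78 and DOF36 (GRMZM2G137502) one of -0.55 ± 0.83 (SE, n = 2 per genotype). In this list 0 were called by edgeR, against 0.0205% of all tested genes, and 0 by limma-voom, which called 0 genes in all. DESeq2 called 0, with 2.03% of the genes it tested called lower. At an edgeR unadjusted p under 0.05, 1, IDDveg9, was lower, against 5.30% of all tested genes.

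The 4 members had unlike profiles over the 4 libraries, and different named genes lay closest to each. Likeness was the root mean square difference between centred log2(CPM + 1) profiles, searched over 4170 named genes with a mean of at least 5 CPM, as a description. Between members it was smallest for sh2 and bt2 (0.425) and largest for agpsl1 and bt1 (1.18). Closest to bt2 was sugary2 (GRMZM2G348551), the starch synthase IIa gene, at a distance of 0.0713. It had 238 and 307 CPM in the WT pair against 81.6 and 130 CPM in the zmknl1 pair (DESeq2 adjusted p = 0.0691), and was missing from the pathway list because that list held it as su2.

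Closest to sh2 were si603005c07 (GRMZM2G112865), the bZIP factor gene BZO2H2 (GRMZM2G098904) and the MAP kinase gene MPK6-1 (GRMZM2G002100), at distances of 0.0510, 0.0631 and 0.0710. BZO2H2 had 23.2 and 37.7 CPM in the WT pair against 18.5 and 18.4 CPM in the zmknl1 pair. Besides sugary2, pco078122a (GRMZM2G178014) and si707046e01 (GRMZM2G064962) lay closest to bt2, at 0.0719 and 0.103. For agpsl1 they were cl16265_1 (GRMZM2G424857), pco092640 (GRMZM2G158162) and Di19 (GRMZM2G038284), at 0.0666, 0.123 and 0.136. Di19 had 331 and 163 CPM in the WT pair against 65.5 and 69.4 CPM in the zmknl1 pair.

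For bt1 the closest were the core histone genes histone2b1 (GRMZM2G071959) and his2a1 (GRMZM2G305046) and the gene gpm319 (GRMZM2G144101), at 0.114, 0.125 and 0.151. The histone2b1 gene had 71.4 and 139 CPM in the WT pair against 40.0 and 115 CPM in the zmknl1 pair, high in both replicates 2 as bt1 was. With 4 libraries, many genes can share such a profile.

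**Figure D4:**
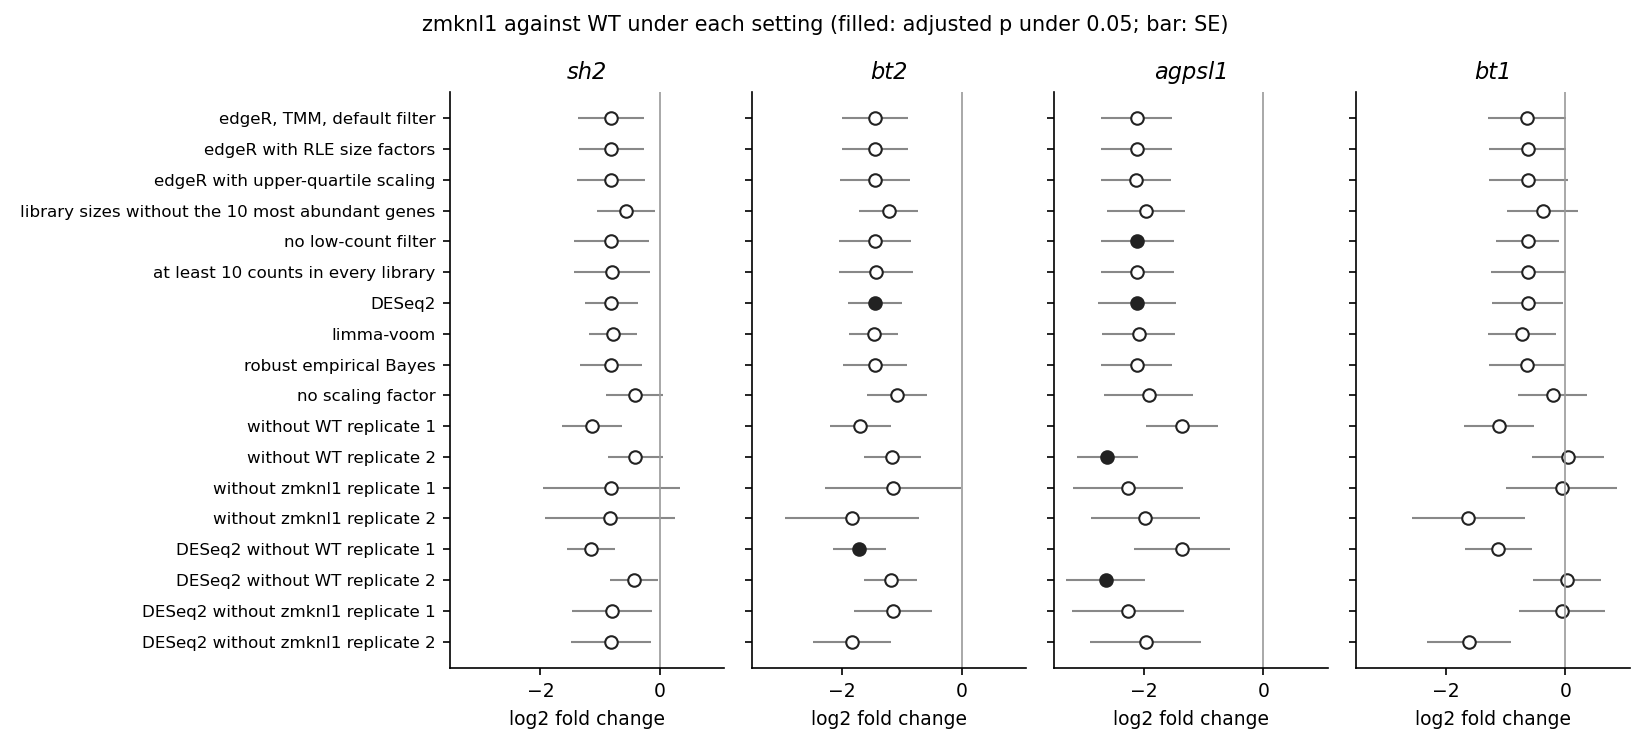
Log2 fold change of zmknl1 against WT for each member under each of the other scalings, filters, tests and left-out libraries, with bars for the SE and filled points for an adjusted p under 0.05. Points of sh2, bt2 and agpsl1 lie below 0 in all settings shown, and bt1 moves from -1.62 without zmknl1 replicate 2 to 0.05 without WT replicate 2.

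The plotted settings differed in which genes they called but gave sh2, bt2 and agpsl1 the same direction. For bt2 the adjusted p passed 0.05 in DESeq2 with all libraries and in DESeq2 without WT replicate 1. For agpsl1 it passed in DESeq2 with all libraries, in edgeR without a low-count filter, and in both tools without WT replicate 2. For sh2 and bt1 it passed in none of the settings run.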

How the data were processed

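The deposited tables hold raw read counts per gene for 4 libraries, not normalized. Trimming by the authors used Trimmomatic 0.36, alignment to B73 RefGen_v3 used HISAT2 2.0.1 and counting used HTSeq, per the submitters' processing notes. The counting mode and strand setting are not given in the sources used here, so reads of overlapping or antisense genes cannot be told apart. The 5 lines for reads assigned to no gene (35.8 to 47.8% of all counts in a library) stayed out of library sizes and tests.

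Groups and replicate numbers came from the titles. In R 4.3.3, edgeR 4.0.16 kept 19519 genes by filterByExpr and scaled them with TMM; the main test was its quasi-likelihood F-test, two-sided, without covariates, with p adjusted by Benjamini-Hochberg over the 19519 genes and a limit of 0.05. SEs were derived from the fold change and the F statistic. Alternatives used DESeq2 1.42.0 (757 genes without an adjusted p), limma 3.58.1 with voom, other scalings and filters, a replicate block and left-out libraries. Ratios of raw counts were compared by exact permutation. The steps were tested on simulated counts.

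Between replicates the chi-square per degree of freedom was 403.2 in WT and 83.6 in zmknl1, so no library was a copy of another. Replicates came from different ears, and p-values measure the spread between 2 libraries per genotype.

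Gene names are those of Zm-B73-REFERENCE-NAM-5.0 in RefSeq, another build than the counting used, which held 19060 of the 39625 IDs; none of its coordinates are given. Named genes were the members, list genes called by edgeR or DESeq2 or else up to 6 per list with the highest mean CPM, and the 3 named genes closest in profile to each member; INCW2, Agp2 and marker genes were also named. Members and lists were chosen with earlier results of these data known. IDs whose synonyms name another protein were left out of the lists.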

Additional observations from a re-analysis of the deposited data

How the results depend on the processing

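Each genotype had 2 libraries, and the biological coefficient of variation over all tested genes was 0.536. The log2 fold changes of sh2, bt2 and agpsl1 kept their sign in every setting run. With no scaling factor, a setting chosen after seeing the data, the median over all tested genes moved from 0.01 to 0.34; relative to these medians the values were -0.83 and -0.76 for sh2, -1.46 and -1.42 for bt2, -2.13 and -2.26 for agpsl1 and -0.65 and -0.55 for bt1. For bt2 an adjusted p under 0.05 came with DESeq2 (-1.45) and the replicate block (-1.47), and for agpsl1 with DESeq2 (-2.12), the block (-2.00) and no low-count filter (-2.11). With 1 library left out, in edgeR and DESeq2, adjusted p passed for agpsl1 without WT replicate 2 (-2.61 and -2.64) and for bt2 in DESeq2 without WT replicate 1 (-1.71); the ranges were -1.15 to -0.41 for sh2, -1.84 to -1.15 for bt2, -2.64 to -1.36 for agpsl1 and -1.62 to 0.05 for bt1, which reversed without WT replicate 2 (0.05 in edgeR, 0.03 in DESeq2); the DESeq2 fits without a library were chosen after seeing the data. The sh2 to bt2 difference ranged from 0.36 to 1.03, bt1 to bt2 from 0.31 to 1.18, and agpsl1 to bt2 from -1.42 to 0.38, reversed without WT replicate 1.

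The edgeR test called 4 genes in all; 715 were called without a low-count filter, 1 with at least 10 counts in every library, 679 by DESeq2, 0 by limma-voom (2183 at an unadjusted p under 0.05), 642 with the replicate block and 0 with no scaling factor (2096 at an unadjusted p under 0.05), 19 to 805 in edgeR with 1 library left out, and 405, 1965, 184 and 224 in DESeq2 without WT replicates 1 and 2 and zmknl1 replicates 1 and 2. Of the starch pathway list 0 were called by edgeR, 3 without a low-count filter, 4 by DESeq2, 7 with the block and 0 to 6 with 1 library left out. The causes were not tested. Samples with the same replicate number share only that number: their deviations from the genotype means correlated at 0.455 over 13193 genes, from 2 pairs, and the labels name no shared batch.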
